A study of Mus musculus with 4 samples.

Results

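The α-cells of the mouse islet, which make glucagon, were compared between a library of islets cultured with IFN-γ alone and a library of untreated islets. An α-cell was a barcode with 200 to 4000 detected genes and at most 12% of its UMIs (unique molecular identifiers, each marking 1 captured RNA molecule) from mitochondrial genes, in which *Gcg* held at least 2% of the UMIs and exceeded *Ppy*, while *Ins1* with *Ins2* held under 2% and *Sst* under 1%. The cells were thus chosen by their measured hormone levels, so hormone values below are descriptions only. The rule found 386 α-cells, of which 90 were untreated and 296 came from the IFN-γ library. They were part of 3643 kept cells in these libraries, and of 7471 kept cells among 12571 barcodes in the whole series. Islets of adult male mice labelled as strain C57BL/6 (C57BL6/J in the methods of the study) were pooled from 8 animals, separated into 4 cultures and left untreated or given IL-1β, IFN-γ or the combination of both for 6 h. Each culture gave 1 droplet-based single-cell library. With 1 library per condition no test was run, cells of a library were not treated as replicates, and all intervals below are 95% intervals for counting error only.

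IFN-γ binds a cell-surface receptor that activates the kinases JAK1 and JAK2, and these activate transcription factors of the STAT family. The transcription factor IRF1 is induced in turn, and together they switch on genes for antiviral GTPases, for the display of peptides on MHC class I molecules and for inhibitors of the same pathway. Islet endocrine cells display little MHC class I at rest, and its increase under interferon is a known feature of islets in autoimmune diabetes.

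The cells carried the markers of α-cells in both libraries. In the untreated and IFN-γ libraries, respectively, *Ttr* (transthyretin) was at 8516 and 6299 UMIs per 1000000 (CPM) in these cells, *Gc* (vitamin D binding protein) at 548 and 514, and *Irx2*, an α-cell transcription factor, at 178 and 151. In β-cells of the same libraries, taken as cells with at least 5% of UMIs from insulin genes, under 2% from *Gcg* and under 1% each from *Sst* and *Ppy*, *Irx2* was at 1.51 and 1.72 CPM and *Gc* at 3.22 and 5.24. *Gcg* itself, which the rule used, held a median of 21.8% of the UMIs of an untreated α-cell and 15.2% with IFN-γ. The untreated α-cell nearest to the *Gcg* limit was at 2.18%, and the untreated cell just outside at 0.0933%. In the IFN-γ library the corresponding values were 4.18% and 0.845%. At the insulin limit the nearest untreated cells were at 1.99% inside and 2.27% outside, and the nearest IFN-γ cells at 1.25% and 2.82%. At the *Sst* limit the nearest IFN-γ cells were at 0.81% and 1.09%, and the highest untreated α-cell was at 0.509%.

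The libraries differed in depth and in makeup. Untreated α-cells held 934396 UMIs in all, with a median of 10917.5 UMIs and 3231 genes per cell, whereas IFN-γ α-cells held 2371928 UMIs with medians of 8047.5 UMIs and 2733.5 genes. Mitochondrial genes held a median of 4.42% and 6.26% of the UMIs. The α-cells were 5.92% of the kept cells without treatment (4.78 to 7.22%) and 13.9% with IFN-γ (12.5 to 15.5%). The upper gene limit removed 16 α-cells from the untreated library and 31 from the other, and the mitochondrial limit 19 and 31. The part of depth and of these limits in the share was not tested. Insulin RNA was also detected, and held a median of 0.516% of UMIs in untreated α-cells and 0.209% with IFN-γ. The 2 libraries shared 4 barcodes, none of them an α-cell in both.

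Markers of immune, endothelial and mesenchymal cells were scarce in the α-cells, while those of other endocrine cells and some ductal markers were not. The β-cell list summed to 7738 CPM untreated and 4546 CPM with IFN-γ, the δ-cell list to 2900.3 and 1885 CPM, led by *Rbp4*, and the PP-cell list to 20950.4 and 19819.7 CPM, most of it *Pyy*. The ductal list summed to 2483 and 3406 CPM through *Spp1* (2180 and 7731 UMIs, with a ductal UMI in 93.3% and 91.9% of the cells), while *Krt17*, *Sox9* and *Cftr* were at 0 in both. Of 10 macrophage markers, 6 were at 0 in untreated α-cells and 7 with IFN-γ, and the summed level of the list was 53.5 and 24.9 CPM. *C1qa* led it with 46 and 49 UMIs, while the general leukocyte gene *Ptprc* was at 0 in both. Of 7 endothelial markers, 2 and 1 were detected, with 2 UMIs and 1 UMI in all. The 7 acinar markers summed to 68.5 CPM untreated and 132 CPM with IFN-γ, most of it *Ctrb1* (37 and 218 UMIs). The part of these cells in the results below was not tested beyond leaving out α-cells with 3 or more UMIs of the macrophage, endothelial, mesenchymal and acinar markers, after which 61 interferon genes were at least 2-fold higher.

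A gene was counted when the mean of its levels in the α-cells of the 2 libraries was at least 20 CPM. Of 5931 genes counted, 215 (3.63%) were at least 2-fold higher with IFN-γ and 53 (0.894%) were at most 0.5 of the untreated level, together 4.52%. Of 150 genes in 10 interferon lists, 144 were in the files and 82 were counted, and 61 of these (74.4%) were at least 2-fold higher and none was 2-fold lower. Just inside the limit lay *Echdc1* and *Lyst*, both at 2 to 3 significant digits, and *Prdm2* at 2.01, and just outside *Fam117b* at 1.996. The median ratio of the 82 was 3.72, against 1.05 over the 5849 genes outside the lists, of which 154 (2.63%) were 2-fold higher. A gene silent without treatment was counted only when IFN-γ α-cells expressed it, so the high share in such lists is partly fixed by the filter. When hormone and mitochondrial genes were left out of the totals, 224 genes were higher and 112 lower, so the share of calls that were upward was 66.7% instead of 80.2%.

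**Figure D1:**
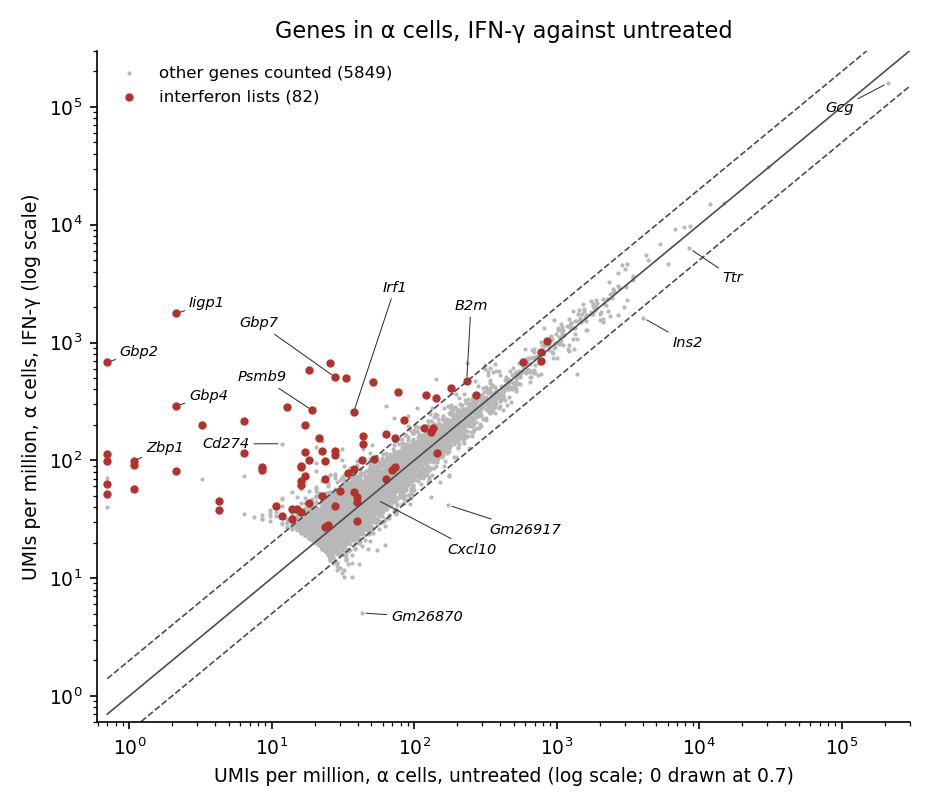
Level of each of 5931 genes in α-cells, in CPM, untreated on the x axis and with IFN-γ on the y axis, both log scales; red points are genes of the interferon lists, the solid line marks equal levels and the dashed lines a 2-fold difference. *Iigp1*, *Gbp2* and *Gbp4* lie farthest above the lines, and of the 82 red points 61 lie above the upper dashed line and none below the lower.

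Among the signalling genes, *Stat2* was higher and the receptor chains were barely detected. These were *Ifngr1*, with 13 UMIs (13.9 CPM) untreated and 26 UMIs (10.96 CPM) with IFN-γ, and *Ifngr2* with 5 and 19 UMIs. The kinase *Jak1* was at 72.8 and 88.1 CPM, a ratio of 1.21 (0.917 to 1.62), and *Jak2* had 7 and 44 UMIs, a ratio of 2.48 (1.11 to 6.52) that lay under the level needed to be counted. *Stat2*, which acts in type I interferon signalling, went from 18.2 to 101 CPM, a ratio of 5.56 (3.40 to 9.71). *Stat3* was at 131 and 175 CPM and the type I receptor chain *Ifnar2* at 29.97 and 54.4 CPM, both within 2-fold. Of 6 genes counted in this list, 2 were at least 2-fold higher, against 3.63% of all genes counted, and the list median was 1.58. Of the 6, 5 were above 20 CPM without treatment, so the count is partly fixed by the filter on level.

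Among the IRF transcription factors, 4 of 6 counted were at least 2-fold higher, against 3.63% of all genes counted, and the median ratio was 3.03. Only 4 of the 6 were above 20 CPM without treatment, so this count is partly fixed by the filter on level. *Irf1* was at 37.5 CPM in untreated α-cells and 255 CPM with IFN-γ, a ratio of 6.81 (4.84 to 9.87). *Irf7*, which drives type I interferon genes, rested on 4 and 107 UMIs, a ratio of 10.5 (3.998 to 39.4), and *Irf9*, the DNA-binding partner of STAT2, was at 16.1 and 61.1 CPM. *Irf2*, which can oppose IRF1, was at 37.5 and 84.3 CPM (2.25, 1.57 to 3.32). *Irf8*, best known from myeloid cells, had no UMI in untreated α-cells and 70 with IFN-γ, at least 9.19-fold higher against the limit of 3 UMIs that a count of 0 allows. The class I transactivator *Nlrc5* had 1 UMI and 82 UMIs (ratio 32.3, 5.64 to 1291), and *Ciita*, its class II counterpart, 0 and 39 UMIs, at least 5.12-fold higher. These last 3 genes were below the level needed to be counted.

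Of 7 inhibitors of the pathway counted, 2 were at least 2-fold higher, against 3.63% of all genes counted. Of the 7, 6 were above 20 CPM without treatment. *Socs1* was counted only through its level with IFN-γ, so the count is partly fixed by the filter on level. *Socs1*, which blocks the JAK kinases, had 0 UMIs in 90 untreated α-cells and 149 UMIs with IFN-γ, at least 19.6-fold higher. *Usp18*, a brake on the type I interferon receptor, was at 23.5 and 70.0 CPM, a ratio of 2.97 (1.90 to 4.87). The phosphatases *Ptpn1* (118 and 186 CPM) and *Ptpn2* (39.6 and 30.4 CPM) and the other 3 genes counted lay within 2-fold, and the median of the 7 was 1.19.

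The largest differences were in the interferon-inducible GTPases, which attack the membranes around intracellular microbes. All 8 guanylate-binding protein genes counted and all 6 immunity-related GTPase genes counted were higher, with medians of 34.3 in each family when the 4 genes without an untreated UMI stand at their lower bound. In each family only 1 of these genes was above 20 CPM without treatment, so both counts are partly fixed by the filter on level. The share higher over all genes counted was 3.63%. Leaving out 1 untreated α-cell that held many of the GTPase UMIs, these medians were 63.6 and 54.6, with 6 genes at their bound. The lowest ratio among the genes with an untreated UMI was that of *Gbp7*, at 18.3 (12.4 to 28.1). *Iigp1* held 2 UMIs in untreated α-cells and 4187 with IFN-γ (2.14 and 1765 CPM), a ratio of 825 (228 to 6812), and 86.1% of IFN-γ α-cells carried it (84.1% after thinning). *Gbp2* (chromosome 3, 142620602 to 142638008) had no UMI untreated and 1615 with IFN-γ, at least 212-fold higher. *Gbp4* went from 2 to 686 UMIs, *Ifi47* from 3 to 471, *Gbp9* from 2 to 192 and *Gbp8* from 1 to 136. *Irgm1*, a regulator of the other GTPases, already had 24 UMIs (25.7 CPM) untreated and reached 674 CPM, a ratio of 26.2 (17.6 to 41.1), and *Gbp7* went from 27.8 to 508 CPM. *Gbp6*, *Gbp10* and *Gm4951* had no untreated UMI, with 234, 123 and 267 UMIs under IFN-γ, and so did *F830016B08Rik*, with 168. *Gbp5* remained scarce, with 0 and 28 UMIs. The near-identical pair *Tgtp1* and *Tgtp2*, each under the level counted, had 86 and 90 UMIs with IFN-γ, which may be divided between the copies by the counting. *Gbp11* and *Gm12250* were not analysed here.

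Promoters are shown for 5 of the genes of highest ratio that had an entry in the RefSeq promoter table (GRCm38.p6, 250 bases before to 50 after the start), because these genes are among those with the largest difference. Of the 20 genes with the highest ratio, 10 had an entry. Capitals mark matches, on either strand, to TTCNNNGAA, the core of the gamma-activated sequence, and to GAAA followed by any 2 bases and GAAA, the core of the interferon-stimulated response element bound by IRF proteins. All 5 genes are on the plus strand, *Gbp2* at chr3:142620413-142620712, *Oasl2* at chr5:114896684-114896983, *Ifi47* at chr11:49076337-49076636, *Irgm2* at chr11:58214727-58215026 and *Igtp* at chr11:58199306-58199605.
Gbp2: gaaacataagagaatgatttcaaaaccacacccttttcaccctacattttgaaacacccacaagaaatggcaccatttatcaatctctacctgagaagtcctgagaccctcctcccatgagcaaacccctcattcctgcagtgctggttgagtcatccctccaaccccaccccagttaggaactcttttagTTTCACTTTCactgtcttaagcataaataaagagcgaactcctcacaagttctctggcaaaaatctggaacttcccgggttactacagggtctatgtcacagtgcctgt
Oasl2: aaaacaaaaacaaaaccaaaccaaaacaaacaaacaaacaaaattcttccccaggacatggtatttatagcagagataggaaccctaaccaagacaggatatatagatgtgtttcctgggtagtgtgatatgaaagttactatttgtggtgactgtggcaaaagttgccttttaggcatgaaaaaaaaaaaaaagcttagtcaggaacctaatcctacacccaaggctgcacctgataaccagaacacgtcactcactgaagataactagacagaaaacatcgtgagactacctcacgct
Ifi47: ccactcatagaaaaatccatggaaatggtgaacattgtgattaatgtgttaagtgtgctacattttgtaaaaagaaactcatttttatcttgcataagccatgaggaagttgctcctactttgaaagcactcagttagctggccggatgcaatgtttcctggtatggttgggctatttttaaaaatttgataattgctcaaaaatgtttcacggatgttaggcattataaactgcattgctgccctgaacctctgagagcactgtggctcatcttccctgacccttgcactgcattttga
Irgm2: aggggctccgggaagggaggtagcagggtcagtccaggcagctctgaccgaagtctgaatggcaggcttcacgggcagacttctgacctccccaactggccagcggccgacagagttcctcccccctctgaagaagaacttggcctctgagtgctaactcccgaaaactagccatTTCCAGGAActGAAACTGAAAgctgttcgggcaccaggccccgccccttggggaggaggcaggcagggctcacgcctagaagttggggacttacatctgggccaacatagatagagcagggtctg
Igtp: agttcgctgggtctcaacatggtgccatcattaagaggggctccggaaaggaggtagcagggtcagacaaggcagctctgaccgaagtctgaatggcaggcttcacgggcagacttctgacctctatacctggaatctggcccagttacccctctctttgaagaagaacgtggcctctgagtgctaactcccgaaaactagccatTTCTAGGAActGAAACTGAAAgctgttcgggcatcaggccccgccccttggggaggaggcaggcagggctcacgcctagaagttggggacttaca

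In this window *Gbp2* held 1 match to the second motif, and *Irgm2* and *Igtp* each held 1 match to each motif, with 2 bases between them. *Oasl2* and *Ifi47* held none, which says only that these letters are not in this window. Over all 32851 promoters of the table, 8.30% held the first motif and 3.44% the second. Of 212 promoters of the genes at least 2-fold higher, 11.8% held the first and 17.9% the second, given as a description with no test.

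Nearly every α-cell of the IFN-γ library carried GTPase transcripts. The GTPases of both families summed to a median of 54.4 UMIs per 10000 in IFN-γ α-cells, with 10% of cells below 16.5 and 10% above 95.7, and to a median of 0 in untreated α-cells. After each cell was thinned to 4000 UMIs, which left out 6 untreated and 13 IFN-γ α-cells, 281 of 283 IFN-γ α-cells (99.3%, 97.47 to 99.9%) and 14 of 84 untreated α-cells (16.7%, 9.42 to 26.4%) held a GTPase UMI. Without thinning, 51 of 90 untreated and 6 of 296 IFN-γ α-cells had none. The 6 IFN-γ cells without a GTPase UMI had a median of 2048.5 UMIs and 519 genes, against 8100.5 and 2741.5 in the other 290, and *Gcg* held a median of 37.4% of their UMIs against 15.0%. The thinned share was 95.5% in β-cells and 100% in δ-cells of the IFN-γ library, the latter being cells with at least 2% of UMIs from *Sst*, more than from *Ppy*, and under 2% each from insulin genes and *Gcg*. The level of *Iapp*, a β-cell hormone gene that the rule did not use, was in IFN-γ α-cells at 4.09% of its level in β-cells of the same library, and *Iigp1* was at 154% and *Igtp* at 103%. The part of RNA from other cells in these shares was not tested.

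**Figure D2:**
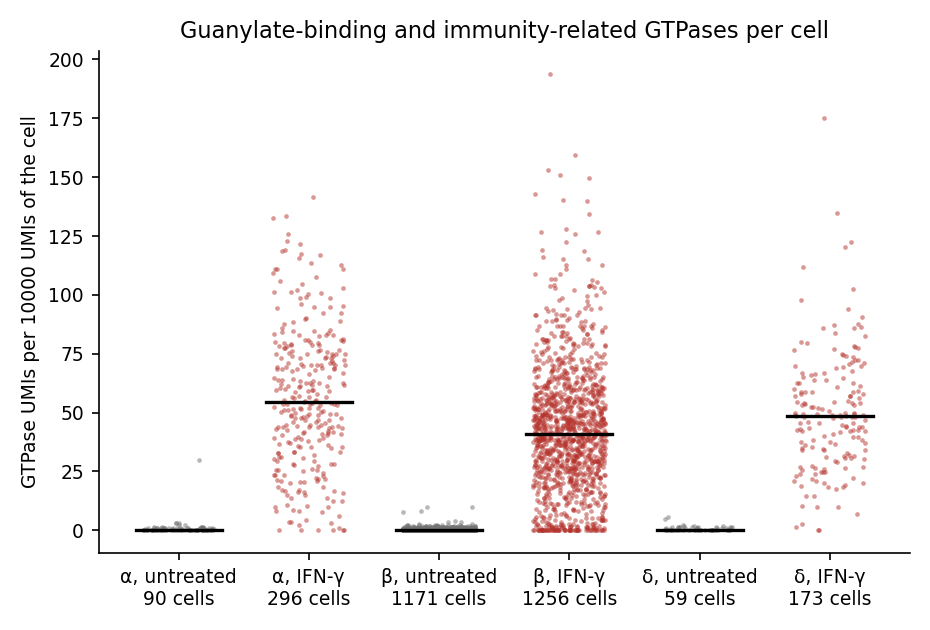
Summed UMIs of guanylate-binding and immunity-related GTPases per 10000 UMIs of each cell (y axis), 1 point per cell and a bar at the median, for α-, β- and δ-cells of the untreated (grey) and IFN-γ (red) libraries. IFN-γ α-cells have a median of 54.4, and 1 untreated α-cell lies at 29.8 while the next highest is at 3.27.

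A lone untreated α-cell carried much of the GTPase signal of the untreated α-cells. It held 45 of the 95 GTPase UMIs in the 90 untreated α-cells, at 29.8 per 10000, and 123 of their 661 antiviral effector UMIs. It had 15108 UMIs, 3873 genes and 16.3% *Gcg*, no UMI of the macrophage, endothelial, mesenchymal or T-cell markers, and a barcode found in no other library. All 51 untreated UMIs of the chemokine *Cxcl10*, all 17 of *Ifit3*, 13 of 15 of *Rsad2*, 11 of 12 of *Gbp3* and both of *Iigp1* came from it. Ratios of these genes therefore depend on it. Over the 82 genes of the interferon lists the median without it was 4.32, with the genes left without an untreated UMI at their lower bound. Without this cell, a choice made after seeing the data, *Gbp3* had a ratio of 262 (46.9 to 10363) in place of 22.2, *Rsad2* 7.56 (1.96 to 64.6) in place of 1.02, and *Tap1* 16.7 (9.25 to 33.7) in place of 11.7. *Cxcl10* and *Ifit3* were then at 0 in untreated α-cells, which made them at least 14.2-fold and 13.3-fold higher with IFN-γ. Other ratios also moved by over 1.5 times without it, among them *Rtp4* to 107 (19.04 to 4240.2), *Gbp4* to 266 (47.6 to 10516), *Gbp9* to 74.4 (13.2 to 2954), *Irgm2* to 66.1 (22.5 to 322), *Igtp* to 48.4 (26.95 to 97.1), *Irgm1* to 44.3 (26.3 to 81.2), *Irf7* to 20.7 (5.60 to 173), *Xaf1* to 16.1 (6.799 to 50.2) and *Parp14* to 6.86 (4.15 to 12.2). *Iigp1*, *Ifi47* and *Nlrc5* then had no untreated UMI and were at least 541-fold, 60.8-fold and 10.6-fold higher.

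Antigen presentation genes were higher at the proteasome and peptide transport, while the classical class I heavy chains and the general chaperones of peptide loading lay within 2-fold. Psmb8, Psmb9 and Psmb10 are the catalytic subunits that turn the proteasome into the immunoproteasome. *Psmb9* went from 19.3 to 265 CPM, a ratio of 13.8 (8.64 to 23.4), *Psmb8* from 51.4 to 460.0 CPM (8.95, 6.71 to 12.2) and *Psmb10* from 77.1 to 380.3 CPM (4.94, 3.88 to 6.37). The constitutive subunits that these replace, *Psmb5*, *Psmb6* and *Psmb7*, stayed within 2-fold, with *Psmb6* at 258 and 172 CPM (0.669, 0.569 to 0.787) and *Psmb5* at 276 and 189 CPM (0.684, 0.586 to 0.800). Of 20 constitutive proteasome genes counted none was 2-fold changed, against 4.52% of all genes counted, and their median ratio was 0.982. *Tap1*, which carries peptides into the endoplasmic reticulum, went from 17.1 to 199.8 CPM (11.7, 7.11 to 20.6), *Tap2* from 23.5 to 99.1 CPM (4.21) and the loading factor *Tapbp* from 141 to 339 CPM (2.40). The general chaperones *Calr*, *Canx* and *Pdia3* stayed within 2-fold. Of the 13 genes of the list, 9 were at least 2-fold higher and 4 lay within 2-fold, with a median of 2.40. Over all genes counted 3.63% were higher. Of the 13, 11 were above 20 CPM without treatment, so the count is partly fixed by the filter on level.

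Among 7 MHC class I genes counted, 4 were at least 2-fold higher, against 3.63% of all genes counted, and the median was 2.02. Of the 7, 6 were above 20 CPM without treatment. The light chain *B2m* went from 233 to 472 CPM, a ratio of 2.02 (1.75 to 2.35), and the non-classical *H2-T23* from 84.6 to 222 CPM (2.62, 2.07 to 3.37). The classical heavy chains *H2-K1* and *H2-D1* were the most abundant and changed little, at 853 and 1027 CPM (1.20, 1.11 to 1.31) and at 779 and 836 CPM (1.07, 0.986 to 1.17). *H2-Q4* rested on 13 and 76 UMIs (2.30) and *H2-M3* on 21 and 117 (2.19). The calls of *B2m* and *H2-M3* lay near the limit, and were lost in 8 alternatives for *B2m*, at 1.91 to 1.99, totals without hormone and mitochondrial genes among them, and in 4 for *H2-M3*, at 1.43 to 1.91. H2 genes resemble each other closely, so that reads between them can be assigned uncertainly. None of the 9 class II genes reached the level to be counted, and their summed level was 5.35 CPM untreated and 35.4 CPM with IFN-γ.

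Of 19 antiviral effectors counted, 16 were at least 2-fold higher, against 3.63% of all genes counted, with a median ratio of 4.15. That median was 7.65 without 1 untreated α-cell, the lone cell described above, with the 1 gene then left without an untreated UMI at its lower bound. *Oasl2* rested on 1 and 218 UMIs (ratio 85.9, 15.25 to 3407). *Rtp4* went from 6.42 to 116 CPM (18.1, 8.22 to 49.8), *Xaf1* from 8.56 to 87.7 CPM (10.2, 5.10 to 24.04), *Samhd1*, which depletes nucleotides, from 21.4 to 154 CPM (7.19, 4.59 to 11.9) and *Uba7*, the enzyme that activates ISG15, from 4.28 to 37.5 CPM (8.77, 3.31 to 32.9). *Ifitm2*, *Isg20* and *Ifi35* stayed within 2-fold. *Isg15* itself had 0 and 63 UMIs, at least 8.27-fold higher but under the level counted. All 10 sensors of foreign nucleic acids counted were higher, with a median of 3.92, led by *Zbp1*, a sensor of Z-form nucleic acids, at 1 and 235 UMIs (92.6, 16.5 to 3672). The *Zbp1* ratio was 26.1 when *Gcg* had to hold at least 10% of UMIs and insulin under 1%, and 127 without the upper limit on genes per cell. Only 3 of the 10 sensors and 9 of the 19 effectors were above 20 CPM without treatment. Their counts are thus partly fixed by the filter on level. *Dtx3l* was at 8.56 and 83.5 CPM, *Parp12* at 16.1 and 90.2 CPM and *Parp14* at 27.8 and 119 CPM, which made them 9.75, 5.62 and 4.29 times as high.

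**Figure D3:**
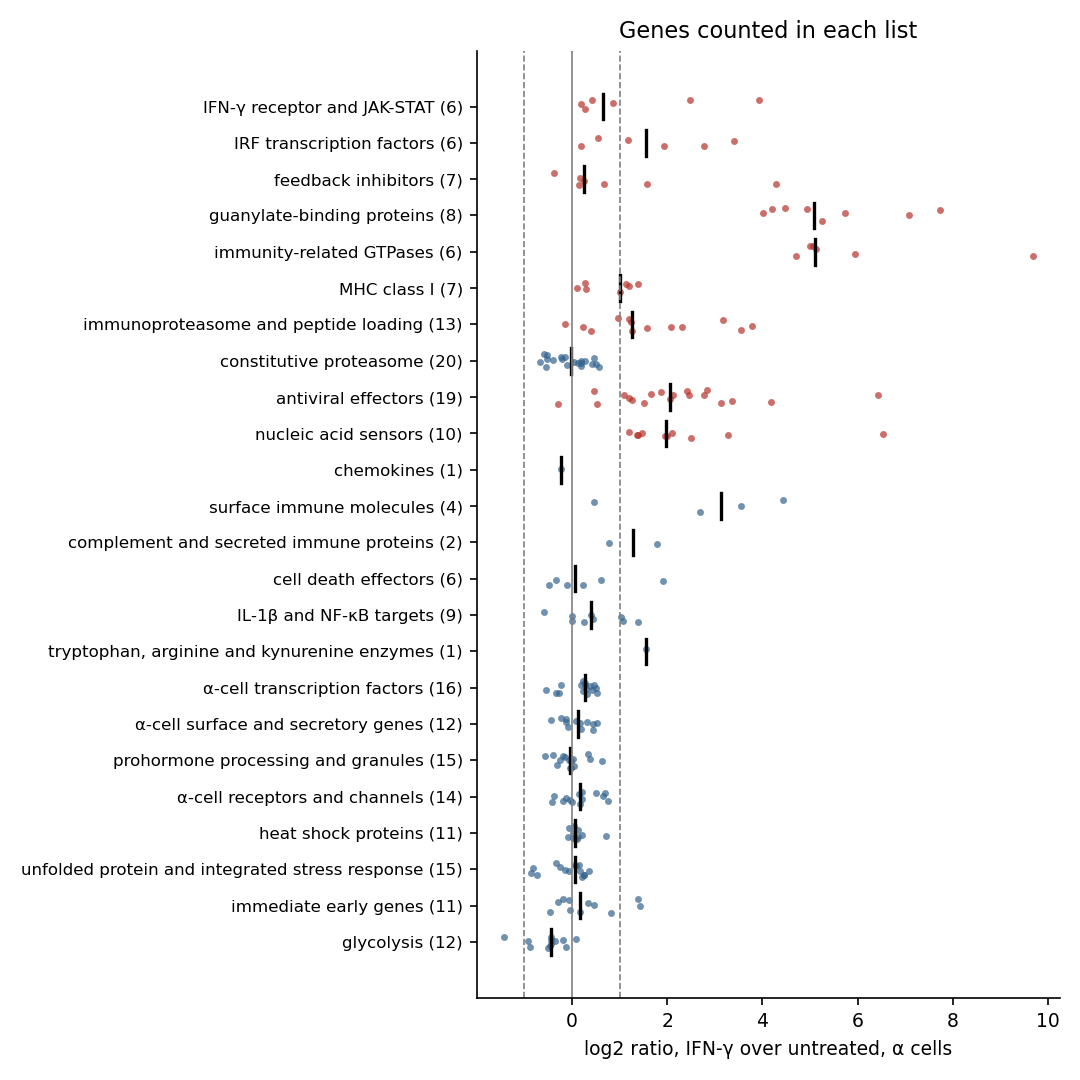
The log2 ratio of each counted gene in α-cells (x axis, IFN-γ over untreated) by gene list, with the number counted in parentheses, interferon lists in red, other lists in blue and the median as a black bar; dashed lines mark 2-fold. Genes with no untreated UMI stand at their lower bound. The 2 GTPase lists lie farthest right, and the lists of α-cell identity, granule, heat shock and constitutive proteasome genes lie between the dashed lines.

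In a list of 13 surface immune molecules 4 were counted, and 3 of these were at least 2-fold higher. Only 2 of the 4 were above 20 CPM without treatment, so this count is partly fixed by the filter on level. In a list of 12 complement and secreted immune proteins 2 were counted and 1 was higher. The share higher over all genes counted was 3.63%. *Cd274*, which encodes the T-cell inhibitor PD-L1, had 11 UMIs in untreated α-cells and 328 with IFN-γ (11.8 and 138 CPM), a ratio of 11.7 (6.48 to 23.8), and 59.1% of IFN-γ α-cells held a UMI against 12.2% of untreated α-cells, or 40.3% and 5.95% after thinning. *Tnfsf10*, the death ligand TRAIL, went from 3.21 to 69.6 CPM (21.7, 7.29 to 106), and *Il18bp*, a secreted blocker of IL-18, from 22.5 to 145 CPM (6.47, 4.17 to 10.6). *Serping1*, an inhibitor of complement C1, went from 142 to 489 CPM (3.43, 2.87 to 4.14). *Lgals3bp*, a secreted glycoprotein, was at 326 and 559.5 CPM, a ratio of 1.71 that lay within 2-fold, as did *Cd47* at 1.37. *Wars*, the tryptophanyl-tRNA synthetase, was at 25.7 and 75.5 CPM (2.94, 1.91 to 4.71). Chemokines were rare. *Cxcl9* had 0 and 2 UMIs, and *Cxcl10* had 110 UMIs in 5.74% of IFN-γ α-cells beside the 51 UMIs of the lone untreated cell. *Icam1* had 0 and 14 UMIs and *Cd40* 1 and 2.

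Of 9 counted genes on a list of IL-1β and NF-κB targets, 3 were 2-fold higher, against 3.63% of all genes counted. The list median was 1.32, and 8 of the 9 were above 20 CPM without treatment. *Sod2*, a mitochondrial antioxidant enzyme, was at 116 and 115 CPM (0.996, 0.794 to 1.26), and *Nos2*, which makes nitric oxide, had no UMI untreated and 9 with IFN-γ, all in 0.338% of the α-cells. The 3 were *Defb1*, a defensin, and the metallothioneins, which bind metal ions: *Mt2* went from 91.0 to 238 CPM (2.61, 2.08 to 3.32) and *Mt1* from 313 to 642 CPM (2.05, 1.81 to 2.34). *Defb1* was at 17.1 and 35.8 CPM (2.09, 1.22 to 3.83). The calls of *Mt1* and *Defb1* were lost at 1.94 and 1.98 with totals without hormone and mitochondrial genes, *Mt1* was at 1.51 when *Gcg* had to hold at least 10% of UMIs and insulin under 1%, and *Defb1* at 1.72 without the upper limit on genes per cell. Of cell death genes only *Bcl2*, which protects mitochondria, was 2-fold higher among the 6 counted, on 10 and 96 UMIs (3.78, 1.97 to 8.14, and 2.38 without the upper limit on genes per cell), while *Bax* was at 320.0 and 228 CPM. *Mlkl*, the effector of necroptosis, had 3 and 77 UMIs, under the level counted. Of the 6 cell death genes counted, 5 were above 20 CPM without treatment, so the 1 call is partly fixed by the filter on level. The share higher over all genes counted was 3.63%.

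Genes of α-cell identity and secretion stayed within 2-fold. This held for all 16 α-cell transcription factors counted (median 1.21), all 12 α-cell surface and secretory genes (1.10), all 15 genes of prohormone processing and granules (0.977) and all 14 receptors and channels (1.12). Over all genes counted 4.52% were 2-fold changed either way, so most genes of any kind also lay within 2-fold. *Irx2* had a ratio of 0.852 (0.707 to 1.03), and *Pax6*, a factor shared by islet endocrine cells, was at 198 and 271 CPM (1.37, 1.16 to 1.62). The outermost transcription factors were *Irx1* at 175.5 and 120.2 CPM (0.685, 0.563 to 0.835) and *Tshz1* at 43.9 and 63.2 CPM (1.44, 1.01 to 2.09). *Pcsk2*, which cuts proglucagon to glucagon, was at 2453 and 2407 CPM (0.981, 0.935 to 1.03). *Ttr* had a ratio of 0.740 (0.7198 to 0.760), and *Pcsk1n*, which encodes a granule protein, 0.679 (0.648 to 0.712). *Gcg*, a description since it chose the cells, was at 0.756 of its untreated level. *Ins1* and *Ins2*, which the rule limited, were at 0.387 and 0.400, and in δ-cells at 0.384 and 0.396.

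Most genes of housekeeping groups lay within 2-fold. No heat shock gene of 11, unfolded protein response gene of 15, ribosomal protein gene of 83 or nuclear oxidative phosphorylation gene of 82 was 2-fold changed, with medians of 1.05, 1.04, 1.10 and 0.954. The share 2-fold changed either way over all genes counted was 4.52%. Mitochondrial transcripts had a median ratio of 1.37 over 13 genes, in parallel with the higher mitochondrial share of the IFN-γ α-cells, and *mt-Atp8* was called at 3.04 (1.83 to 5.37). Immediate early genes, which respond within minutes to handling as well as to signals, included *Egr1* at 105 and 280.4 CPM (2.67, 2.16 to 3.34) and *Zfp36* at 24.6 and 64.1 CPM (2.60, 1.67 to 4.23), with the other 9 counted within 2-fold, among them *Jun* at 268 and 469 CPM. *Asns*, a target of the integrated stress response, was at 75.98 and 41.7 CPM (0.549, 0.401 to 0.756). Glycolysis genes had a median ratio of 0.736 over 12, and only *Ldha* passed 2-fold, at 36.4 and 13.5 CPM (0.371, 0.222 to 0.619). That call was lost without the upper limit on genes per cell (0.511) and without α-cells holding 3 or more UMIs of non-endocrine markers (0.792). *Pfkl* (0.525, 0.396 to 0.698) and *Eno1* (0.543, 0.426 to 0.693) were close to that limit. The part of dissociation in these values was not tested.

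Lower genes were fewer than higher ones, and those named here were of mixed function. *Gm26870*, a predicted gene, had the lowest ratio, with 40 UMIs in 8.89% of untreated α-cells and 12 UMIs with IFN-γ (0.118, 0.0564 to 0.230), and was at 0.388 among cells with at least 1000 detected genes, a choice made after seeing the data. *Gm26917* went from 172 to 41.7 CPM (0.242, 0.187 to 0.313). *Gstp1*, a detoxifying transferase, rested on 34 and 24 UMIs (0.278, 0.158 to 0.483), *S100a10*, a calcium-binding family member, on 58 and 45 UMIs (0.306) and *Hist1h1e*, a linker histone, on 51 and 41 UMIs (0.317). The remaining named genes of this end, *Klhdc4*, *Lgi2*, *Upk3a* and *Eif4ebp1*, had 29 to 38 untreated UMIs and ratios of 0.315 to 0.368. *Upk3a* was at 0.799 when *Gcg* had to hold at least 10% of UMIs and insulin under 1%. The lower calls were sensitive to which cells entered: without the upper limit on genes per cell, 58 genes were lower, of which 25 were among the 53.

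Set beside the other endocrine cells, which share the 2 libraries but not the cells, α-cells showed a like response with smaller ratios at several genes. *Cd274* reached 138 CPM in α-cells against 240.0 in β-cells and 235 in δ-cells, with ratios of 11.7 (6.48 to 23.8), 52.4 (42.55 to 65.3) and 59.0 (16.2 to 489.7). *Tap1* was at 199.8 CPM in IFN-γ α-cells, 161 in β-cells and 256 in δ-cells, but 17.1, 4.73 and 5.97 without treatment, so that its ratios were 11.7 (7.11 to 20.6), 34.04 (27.7 to 42.3) and 42.9 (14.55 to 209). Without the lone untreated α-cell the ratio of *Tap1* in α-cells was 16.7 (9.25 to 33.7), which overlaps the β-cell interval, and that of *Cd274* was 12.7 (6.83 to 26.8), which does not. *Psmb9* differed little, with ratios of 13.8, 11.6 and 11.9. The differences between cell types were not tested, as each rests on 1 library per condition. The genes counted were also 2-fold higher in like shares, 3.63% in α-cells, 3.66% in β-cells and 3.78% in δ-cells, while 0.894%, 0.0606% and 2.72% were lower. The untreated cells of these types held 934396, 19868681 and 502367 UMIs in all, and the part of depth in these shares was not tested.

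**Figure D4:**
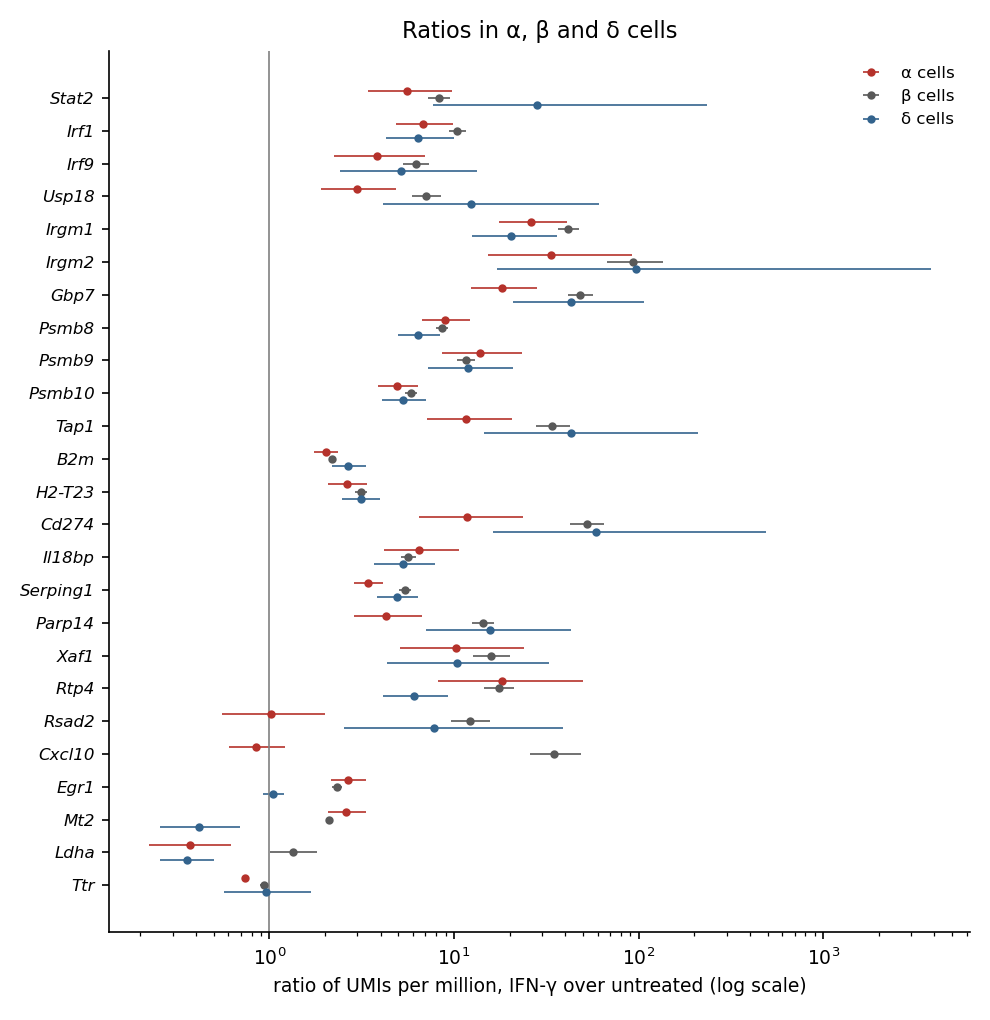
Ratio of CPM, IFN-γ over untreated, on a log axis for named genes in α-, β- and δ-cells, with 95% counting intervals; *Cxcl10* in δ-cells is not drawn because its untreated count was 0. The intervals of α- and β-cells overlap for *Psmb8* and *Psmb9*, and do not for *Cd274*, *Parp14* and *Tap1*, although without the lone untreated α-cell the *Tap1* interval in α-cells (9.25 to 33.7) overlaps that in β-cells, and the upper end of the *Parp14* interval in α-cells (4.15 to 12.2) comes close to the β-cell interval (12.5 to 16.4).

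The α-cells of the other cytokine libraries, compared with the same untreated cells and so sharing that control, give the values beside which IFN-γ alone can be read. *Iigp1* had no UMI with IL-1β and was at 1765 CPM with IFN-γ and 464 CPM with both cytokines. *Gbp2* went the other way, at 42.5, 681 and 1565 CPM, as did *Irf1* at 54.55, 255 and 508 CPM and *B2m* at 292, 472 and 919.6 CPM. *Cd274* was at 8.94, 138 and 115 CPM. Other genes were highest with both cytokines: *Cxcl10* was at 19.7, 46.4 and 1744 CPM, *Icam1* at 188, 5.90 and 899 CPM, *Nos2* at 24.6, 3.79 and 153 CPM and *Gbp5* at 4.92, 11.8 and 161 CPM. Of the genes counted, 6.87% were 2-fold higher and 6.32% lower with IL-1β in α-cells, and 9.16% and 9.44% with both cytokines.

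**Figure D5:**
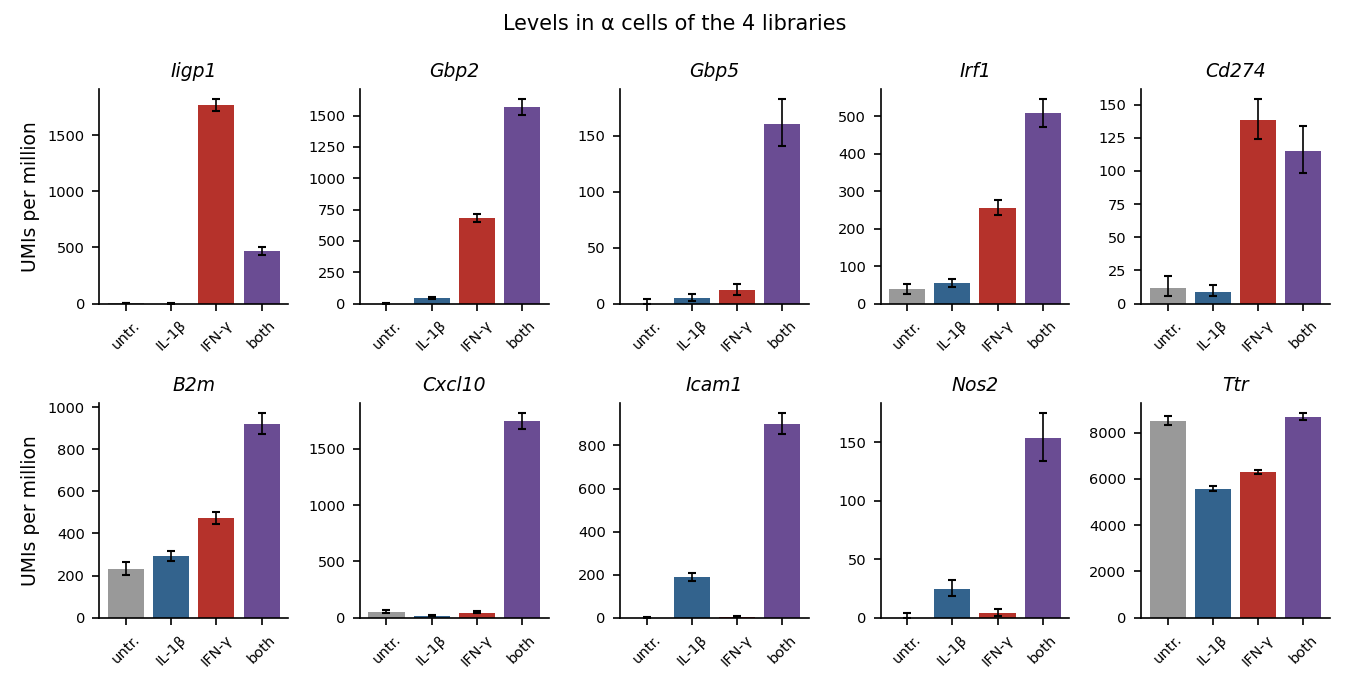
Level of 10 genes in α-cells of the 4 libraries, in CPM on axes that start at 0 and differ between panels, with exact Poisson 95% intervals; untr. is the untreated library and both is IL-1β with IFN-γ. *Iigp1* was highest with IFN-γ alone, the intervals of *Cd274* overlapped between IFN-γ alone and both cytokines, and *Gbp5*, *Cxcl10*, *Icam1* and *Nos2* were highest with both cytokines.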

How the data were processed

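Single-cell libraries of mouse islets were prepared with the 10x Genomics Chromium 3' system; the paper names version 3 of the kit and the sample labels version 2. The deposited values are raw UMI counts per gene and barcode that the authors made with Cell Ranger on mm10, per the submitters' processing notes, and the matrix headers give software 3.0.0. The counts cover 31053 genes and were not normalized by the authors. Depth was 50731370 UMIs in the untreated and 31209339 UMIs in the IFN-γ library, and 934396 and 2371928 UMIs in the α-cells, so that 3 UMIs, the limit a count of 0 allows, were 3.21 and 1.26 CPM.

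UMIs of the α-cells were summed per library and divided by their total (CPM). Ratios carry exact conditional binomial intervals, levels exact Poisson and shares exact binomial (Clopper-Pearson) intervals, all at 95% and for counting error only. Doublets were limited by the upper gene limit and the hormone limits, with no doublet caller. As each condition was 1 library, no test was run. The α-cells and gene lists were chosen with earlier results of these data known. Named genes were the 20 highest and 10 lowest ratios among genes called, leaving out hormones, mitochondrial genes and markers of other cell types, up to 4 genes per list farthest from a ratio of 1, and a set named whatever its values. *Irf8*, *Isg15*, *Ifit3*, *Samhd1*, *Tap2*, *Tapbp*, *H2-K1*, *H2-D1*, *Isg20*, *Ifitm2*, *Ifi35*, *Mlkl*, *Psmb7*, *Calr*, *Canx*, *Pdia3*, *Tgtp1* and *Tgtp2* were named after their values were seen. Python 3.11.15, numpy 2.4.6, scipy 1.17.1, pandas 2.3.3 and matplotlib 3.10.9 were used. Of the gene identifiers, 30934 matched GENCODE M21 (GRCm38, the assembly of mm10), the source of gene positions. On simulated α-cell counts over 31053 genes with 200 changed, 175 changed genes passed the filter on level, and 174 of these were recovered. Of 5778 unchanged genes 9 were called. Counts were drawn for the summed cells of each library, with no variation between cultures or between cells. These numbers are therefore no error rate for the data. The 13 alternatives set out at the start changed the cell limits, totals, weighting, depth, level filter, pseudocount and scale, and 2 were added after seeing the data. The authors' own comparisons were not used. Some genes that the rule names are not reported here.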

Additional observations from a re-analysis of the deposited data

Results flagged for a closer look

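*Mt2* moved in opposite directions in 2 cell types of the same libraries. In α-cells it was at 91.0 CPM untreated and 238 CPM with IFN-γ, a ratio of 2.61 (2.08 to 3.32), whereas in δ-cells it was at 67.7 and 28.3 CPM, a ratio of 0.418 (0.254 to 0.689). In β-cells it was at 225 and 472 CPM. The α-cell ratio of *Mt2* was 2.01 when *Gcg* had to hold at least 10% of UMIs and insulin under 1%. The difference between cell types was not tested, since each value comes from 1 library.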

How the results depend on the processing

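No paired analysis was possible because each condition had 1 library. With 215 genes higher and 53 lower as reported, thinning each cell to 4000 UMIs gave 399 and 165, a level limit of 5 CPM gave 588 and 265, a limit of 50 CPM gave 82 and 10, a pseudocount of 10 CPM gave 122 and 14, and a difference of 0.5 in ln(mean UMIs per 10000 + 1), the scale of the study, gave 55 and 4. Totals without hormone and mitochondrial genes gave 112 lower genes. The 61 interferon genes became 39 at the limit of 50 CPM and 37 on the ln scale, and were between 53 and 75 under the other alternatives, those added after seeing the data included. No named gene that was called turned its direction under the alternatives run for named genes. Of the 53 lower genes, 25 to 53 were called again under the alternatives that changed cells or totals. The median log2 ratio over genes counted was 0.07 as reported and 0.13 with every cell weighted the same. Genes with few untreated UMIs have the widest intervals, as the untreated α-cells held 934396 UMIs. Ratios on at most 3 untreated UMIs moved by large factors, for example with the pseudocount to 146 for *Iigp1* (825 as reported), 9.85 for *Zbp1* (92.6) and 9.21 for *Oasl2* (85.9).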

Other observations

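Genes outside the lists were also higher in IFN-γ α-cells and were named after their values were seen. *Gm12185* had 0 UMIs untreated and 96 with IFN-γ, *Tmem140* 6 and 176, *Snx10*, a sorting nexin, 59 and 685, *Nampt*, an enzyme of NAD synthesis, 29 and 297, and *Apobec3*, an antiviral deaminase, 29 and 238. The ratios were 11.6 (5.20 to 31.9) for *Tmem140*, 4.57 for *Snx10*, 4.03 for *Nampt* and 3.23 for *Apobec3*.

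Heat shock marked a few cells. In 7 of 296 IFN-γ α-cells *Hspa1a* was at 10 or more UMIs per 10000, and in these the GTPases summed to 12.6 UMIs per 10000 against 57.9 in the other 289. In the untreated library 2 of 90 α-cells passed that limit.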
